A study of Dugesia japonica with 4 samples.

Results

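Genes that build cilia and the sperm flagellum were followed in heads of the planarian Dugesia japonica, a freshwater flatworm that regrows a lost head. They were the assembled transcript features whose deposited protein name contained radial spoke, tektin, intraflagellar, cilia, flagell, Bardet-Biedl, axonem, outer dense, sperm, rhophilin associated tail, meiotic, FAM154, FAM221, coiled-coil domain-containing, centrosom, centriol or basal body. Dyneins, kinesins and tubulins were left out of the set. This gave 64 of 15850 features, under 41 names and on 45 contigs of the assembly. The BaCl2 heads came from worms held in 1 mM BaCl2 at 10 °C for 35 days, by which time heads insensitive to BaCl2 had regrown and were cut off. The control heads came from wild-type worms. The labels give neither a temperature nor any head regrowth for the controls, and no feeding for either group, so barium exposure, regrowth, cold and any difference in feeding cannot be told apart. Each group had 2 libraries from poly(A) RNA, each made from the heads of 25 worms.

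Motile cilia are built around an axoneme of doublet microtubules, with tektin filaments in the doublet walls and radial spokes that link the doublets to a central pair. Intraflagellar transport (IFT) carries building material along the axoneme, the BBSome moves membrane proteins in and out of the cilium, and centrioles anchor it in the cell as basal bodies. In planarians the ciliated ventral epidermis drives gliding, the flame cells of the protonephridia beat cilia to move fluid, sensory neurons carry cilia, and sperm carry flagella of the same kind of axoneme. Barium ions block potassium channels.

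Levels are in FPKM, which divides the fragments of a feature by its length and by the size of the library, on 1 scale for the 4 libraries. The control libraries held 5901128 and 8304630 fragments and the BaCl2 libraries 3395482 and 6875650. Over the 7983 features with at least 100 fragments in all, the correlation of log2(FPKM + 1) across features was 0.977 for the control pair and 0.934 for the BaCl2 pair, and 0.892 to 0.903 for a control with a BaCl2 library. Features are not independent replicates, so no p is attached. BaCl2 replicate 1 was the shallowest library. In bulk RNA from heads, fewer ciliated cells and less ciliary RNA per cell cannot be told apart.

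Most ciliary and flagellar features had lower levels in BaCl2 heads, and a small number were close to absent there. A Tektin-3 feature, a FAM154A feature, a radial spoke head protein 3 homolog and FAM221B fell 6.63- to 39.6-fold in mean FPKM, while longer features under the same or a related name were 1.52- to 2.37-fold lower and did not pass the test. In the two-sided limma fit on log2(FPKM + 1), 43 of the 64 members had the 100 fragments needed to be tested. Of these 43, 4 were called lower at an adjusted p under 0.05, beside 1.22% of all tested features. None of the 43 was called higher in this limma fit, beside 0.2% of all tested features, and 16 members had an unadjusted p under 0.05 in either direction, beside 18.8% of all. The p-values rest on the spread between 2 libraries per group, and an exact permutation test of 2 against 2 cannot go below 0.333. Of the 43, 5 had fewer than 25 BaCl2 fragments and entered the test through their control fragments, among them 3 of the 4 called lower.

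The calls did not hold over every setting. Over all 15683 features with a mean of 1 FPKM or more, limma called none of the 64 members, beside 0.0829% of features called lower and 0.0446% higher. An unadjusted p under 0.05 was held by 10 members, beside 1770 of the 15683 features. The adjusted p of the 4 called members ran from 0.219 to 0.331 in that fit. With a pseudocount of 0.1 FAM221B alone was called lower, beside 0.589% of all tested features called lower and 0.0752% higher. With limma voom, run on the fragments, FAM154A TCONS_00014684 alone was called lower, beside 0.651% lower and 0.664% higher. With median-ratio rescaling limma called none of the 43, beside 0.413% of all tested features lower and 0.0626% higher. There 14 members had an unadjusted p under 0.05, beside 1492 of the 7983 tested features. With scaling by library totals limma again called none, beside 0.188% lower and 0.0251% higher. There 13 members had an unadjusted p under 0.05, beside 1413 of the 7983.

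The log2 fold (BaCl2 minus control) was below 0 in 41 of the 43 tested members, beside 60.9% of all tested features, and above 0 in 2. This count depended on the scale. It was 37 with median-ratio rescaling and 35 with scaling by library totals, where the median of all tested features was 0.009 and 0.06. On the deposited scale the median log2 fold over the members was -0.72, beside -0.15 over all tested features. Over all 64 members with no filter the median was -0.60, beside -0.05 over all 15850 features. The levels of the 2 BaCl2 libraries both lay below those of both controls in 30 of the 43 tested members, beside 36.4% of all tested features. Both BaCl2 libraries lay above both controls in 2 members, beside 19.1% of all. On a scale set by library totals, where the median of all features was 0.06 in place of -0.15, 25 members and 24.6% of all tested features had no overlap with BaCl2 lower. In CPM, the fragments of a feature scaled to a common library total, the 64 members summed to 5019 and 6407 in the control libraries and to 2846 and 4313 in the BaCl2 libraries. Both BaCl2 sums lay below both control sums, at 0.627 of their level.

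**Figure D1:**
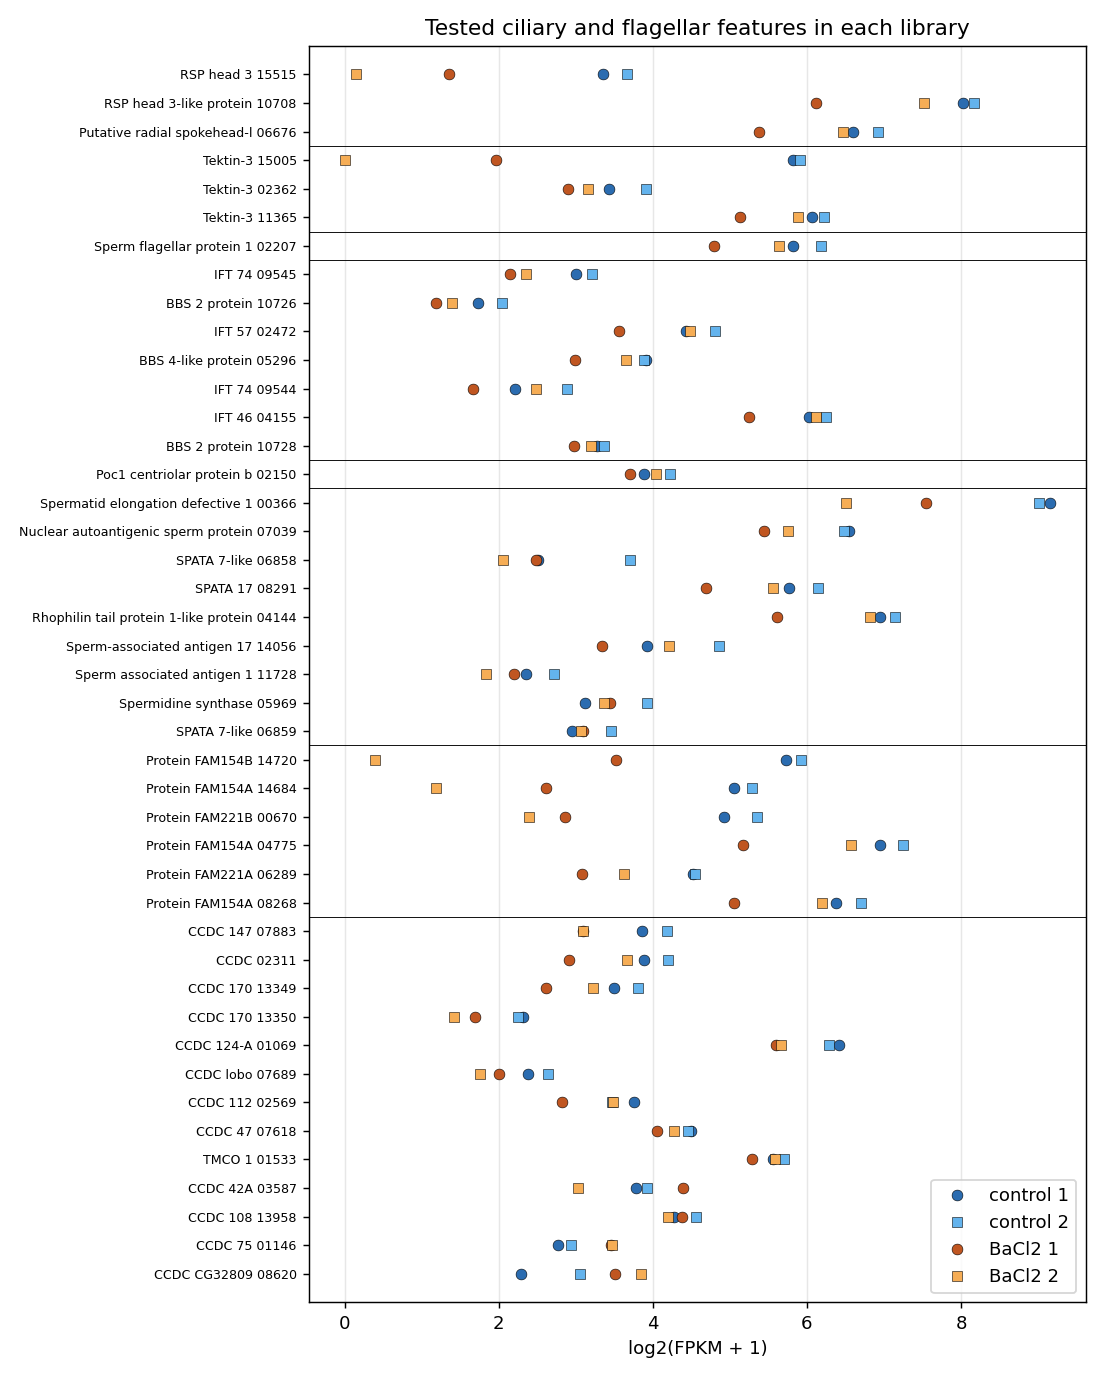
Level of each of the 43 tested members in each library, as log2(FPKM + 1) on the horizontal axis; rows are features, ordered by role and then by log2 fold, and the digits after a name end the feature's identifier. In 30 rows both BaCl2 points lie to the left of both control points, and in 2 rows, at the bottom, they lie to the right.

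The 21 untested members had 5 to 95 fragments over the 4 libraries. Their log2 folds ran from -1.80 to 1.82, with 14 below 0 and a median of -0.23. Lengths of the 64 members ran from 67 to 2663 nt, with 13 members under 200 nt, where a single fragment stands for many FPKM. On 12 contigs several members lay side by side, 31 members in all, and these carry the same protein name and may be pieces of 1 transcript. Sperm-associated antigen 17, a central-pair protein of motile cilia in mammals, was split into 6 such features. Only its piece TCONS_00014056 was tested, at 14.2 and 28 FPKM in control heads, against 9.16 and 17.6 FPKM in BaCl2 heads (a log2 fold of -0.61, SE 0.43, limma adjusted p = 0.461), with groups that overlapped.

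Radial spokes were among the most abundant members. Radial spoke head protein 3 holds the spoke to the doublet microtubule in the green alga Chlamydomonas and in mammals. Its 3-like feature (TCONS_00010708, 1368 nt) had 259.5 and 287 FPKM in the control libraries and 68.5 and 183 FPKM in BaCl2 replicates 1 and 2. Both BaCl2 values were below both controls, but they lay far apart, and the log2 fold of -1.28 (SE 0.48) missed the threshold (limma adjusted p = 0.233). The second feature of the family, a radial spoke head protein 3 homolog (TCONS_00015515, 536 nt), had 9.21 and 11.7 FPKM in control heads, against 1.57 and 0.103 FPKM in BaCl2 heads. It fell by 2.76 on the log2 scale (SE 0.43, limma adjusted p = 0.0445), from 204 control fragments to 10 in BaCl2. A putative radial spokehead feature (TCONS_00006676) had 96.2 and 120.7 FPKM in control heads, against 40.7 and 87.2 FPKM in BaCl2 heads (a log2 fold of -0.84, SE 0.41, limma adjusted p = 0.318). Of the 3 tested radial spoke features, then, 1 was called lower, beside 1.22% of all tested features. All 3 had BaCl2 levels below both controls, beside 36.4% of all.

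Tektins form stable filaments in the walls of doublet microtubules. All 3 tektin features were named Tektin-3, and each lay on its own contig. The shortest, TCONS_00015005 (219 nt), had 55.6 and 59.2 FPKM in the control libraries, 2.90 FPKM in BaCl2 replicate 1 and none in BaCl2 replicate 2. It fell by 4.89 on the log2 scale (SE 0.60, limma adjusted p = 0.0209), the strongest fall among the 43 tested members. Its 132 control and 2 BaCl2 fragments, pooled over libraries on the scale of the deposited FPKM, gave a 53.6-fold difference. The 95% exact binomial interval was 14.5 to 447 and covers counting error only. The longest, TCONS_00011365 (2141 nt), had 65.9 and 73.7 FPKM in control heads, against 33.98 and 58.1 FPKM in BaCl2 heads (a log2 fold of -0.64, SE 0.34, limma adjusted p = 0.346). TCONS_00002362 (1541 nt) had 9.76 and 14.0 FPKM in control heads, against 6.47 and 7.91 FPKM in BaCl2 heads (a log2 fold of -0.64, SE 0.28, limma adjusted p = 0.286). In the 2 longer features BaCl2 levels were also below both controls, at roughly the median difference of the members.

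FAM154A and FAM154B correspond to the mammalian SAXO proteins, which bind and stabilise axonemal microtubules. The family of FAM154 and FAM221 features had the lowest median log2 fold of the role groups with more than 1 tested feature, -1.87 over 6 tested features. All 6 had BaCl2 levels below both controls, beside 36.4% of all tested features, and 2 of the 6 were called lower, beside 1.22%. FAM154A TCONS_00014684 (1308 nt) had 32.3 and 38.1 FPKM in control heads, against 5.10 and 1.28 FPKM in BaCl2 heads. It fell by 3.27 on the log2 scale (SE 0.47, limma adjusted p = 0.0333), and with 2252 control and 138 BaCl2 fragments it was the best counted of the 4 called members. FAM154B (TCONS_00014720, 310 nt) had 51.8 and 59.8 FPKM in control heads, against 10.48 and 0.311 FPKM in BaCl2 heads. Its BaCl2 libraries lay far apart, and the log2 fold of -3.87 (SE 0.91) missed the threshold (limma adjusted p = 0.114).

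The remaining FAM154A features were the abundant ones. TCONS_00004775 had 122 and 151 FPKM in control heads, against 35.1 and 94.1 FPKM in BaCl2 heads (a log2 fold of -1.22, SE 0.48, limma adjusted p = 0.245). TCONS_00008268 had 82.5 and 103 FPKM in control heads, against 32.2 and 72.5 FPKM in BaCl2 heads (a log2 fold of -0.91, SE 0.42, limma adjusted p = 0.302). Neither passed, and in both BaCl2 replicate 1 was the lowest library, whereas in TCONS_00014684 and FAM154B BaCl2 replicate 2 was.

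The role of the FAM221 proteins in planarians is not given in the annotation. FAM221B (TCONS_00000670, 256 nt) had 29.4 and 40.0 FPKM in control heads, against 6.24 and 4.23 FPKM in BaCl2 heads. It fell by 2.52 on the log2 scale (SE 0.30, limma adjusted p = 0.0180), with 133 control and 15 BaCl2 fragments, and its BaCl2 libraries lay close together. FAM221A (TCONS_00006289, 826 nt) had 22.0 and 22.4 FPKM in control heads, against 7.46 and 11.3 FPKM in BaCl2 heads (a log2 fold of -1.19, SE 0.28, limma adjusted p = 0.120). It was named after its values were seen. In the authors' deposited table FAM221A passed a q-value of 0.05 (q = 0.0236), as did FAM154A TCONS_00014684 (q = 0.00428) and FAM154B (q = 0.0132). Those 3 were the only members to do so in the authors' deposited table, all lower, beside 1.29% of all its features called lower and 0.688% called higher. Tektin-3 TCONS_00015005 had q = 0.557 in the authors' deposited table.

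**Figure D2:**
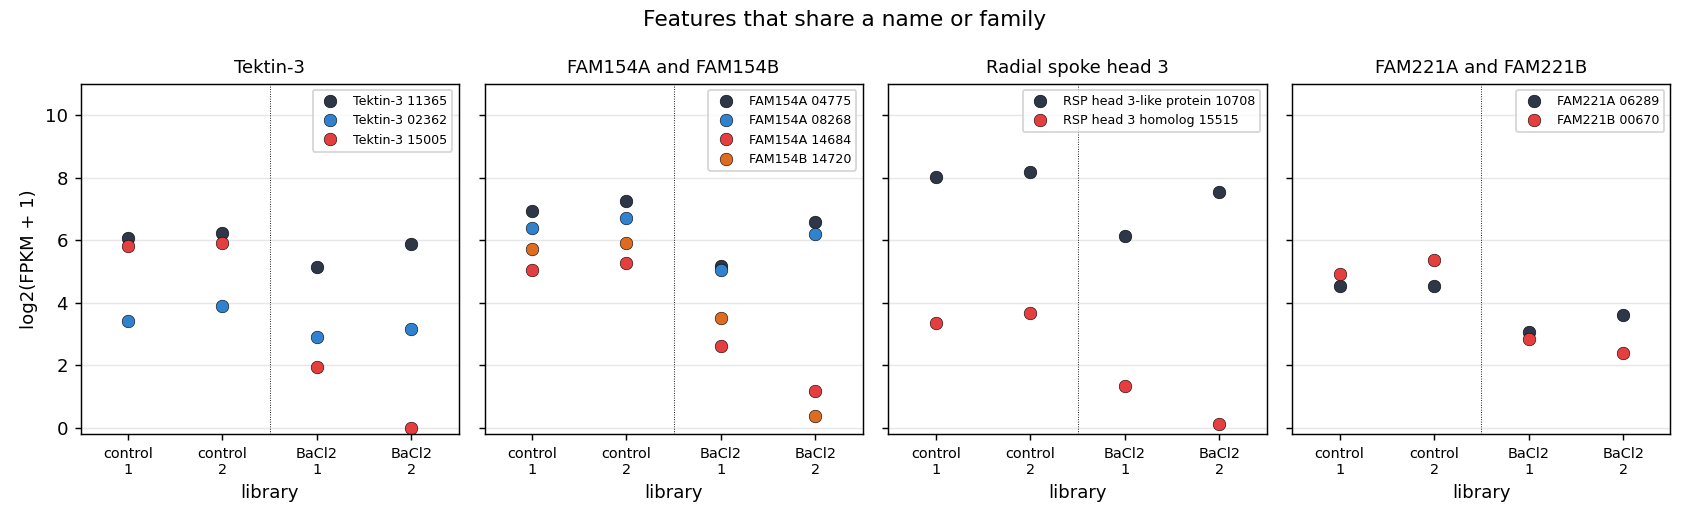
Levels as log2(FPKM + 1) in each library for features that share a name or family; the digits after a name end the feature's identifier. Tektin-3 TCONS_00015005 lies beside TCONS_00011365 in the control libraries and far below it in the BaCl2 libraries, and FAM154A TCONS_00014684 and FAM154B lie further below the other FAM154A features in BaCl2 than in control libraries.

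Relative to a feature of the same name or family, the called features stood lower in BaCl2 than in control libraries. Tektin-3 TCONS_00015005 stood at 84.4% and 80.4% of the FPKM of TCONS_00011365 in the control libraries, at 8.53% in BaCl2 replicate 1 and at 0 in replicate 2. FAM154A TCONS_00014684 stood at 26.4% and 25.3% of TCONS_00004775 in control and at 14.5% and 1.36% in BaCl2 libraries. The radial spoke head protein 3 homolog stood at 3.55% and 4.08% of the 3-like feature in control and at 2.29% and 0.0564% in BaCl2 libraries. In each of these 3 pairs, which each hold a called feature, both BaCl2 ratios were below both control ratios, and the lowest ratio was that of BaCl2 replicate 2. FAM154B, which was not called, also stood further below FAM154A TCONS_00004775 and TCONS_00008268 in BaCl2 than in control libraries. The pairs that follow, also with no called feature, did not do so. Tektin-3 TCONS_00002362 stood at 14.8% and 19.01% of TCONS_00011365 in control and at 19.04% and 13.6% in BaCl2 libraries, which overlap, and FAM154A TCONS_00008268 stood at 67.5% and 68.4% of TCONS_00004775 in control and higher, at 91.8% and 77.1%, in BaCl2 libraries. These are ratios of deposited levels with 2 libraries per group, and their difference was not tested. The called features were picked for their falls, so a lower BaCl2 ratio to an uncalled partner follows in part from that choice. Whether the features are separate genes, alleles or copies that share reads is not given in the annotation.

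Among the sperm and meiosis names, 9 of 18 features were tested and none was called in the limma fit. An unadjusted p under 0.05 was held by 2, beside 18.8% of all tested features. All 9 log2 folds were below 0, with a median of -0.83. Spermatid elongation defective 1 (TCONS_00000366, 108 nt) had 570.1 and 513.7 FPKM in control heads, against 185.8 and 90.2 FPKM in BaCl2 heads. The groups were well separated, but the log2 fold of -2.05 (SE 0.41) missed the threshold (limma adjusted p = 0.0833), and the short feature held 105 control and 20 BaCl2 fragments. The rhophilin associated tail protein 1-like feature (TCONS_00004144), named for a fibrous sheath protein of the mammalian sperm tail, had 122 and 140 FPKM in control heads, against 48.1 and 111.5 FPKM in BaCl2 heads (a log2 fold of -0.83, SE 0.43, limma adjusted p = 0.340). Nuclear autoantigenic sperm protein (TCONS_00007039), a histone chaperone, had 92.6 and 88.2 FPKM in control heads, against 42.3 and 53.2 FPKM in BaCl2 heads (a log2 fold of -0.92, SE 0.28, limma adjusted p = 0.170). Spermatogenesis-associated protein 7-like TCONS_00006859, in mammals a protein of the photoreceptor connecting cilium, had overlapping levels of 6.70 and 9.95 FPKM in control heads, against 7.53 and 7.42 FPKM in BaCl2 heads. Its log2 fold of -0.12 turned to 0.09 with scaling by library totals, so no direction is given for it.

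Sperm flagellar protein 1 (TCONS_00002207), a microtubule-bundling protein of the central pair in mammals, had 55.6 and 71.5 FPKM in control heads, against 26.9 and 48.98 FPKM in BaCl2 heads. Both BaCl2 values lay below both controls, and the log2 fold of -0.78 (SE 0.36) missed the threshold (limma adjusted p = 0.304).

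Transport and BBSome genes stood at smaller differences. Of 12 features 7 were tested, all 7 with log2 folds between -0.86 and -0.23 (median -0.58), and none was called in the limma fit. An unadjusted p under 0.05 was held by 1, beside 18.8% of all tested features. IFT46 (TCONS_00004155), a subunit of the IFT-B complex that carries cargo to the tip, had 64.0 and 74.8 FPKM in control heads, against 37.1 and 68.7 FPKM in BaCl2 heads (a log2 fold of -0.45, SE 0.36, limma adjusted p = 0.515). IFT57 (TCONS_00002472), also of IFT-B, had 20.6 and 27.0 FPKM in control heads, against 10.8 and 21.4 FPKM in BaCl2 heads (a log2 fold of -0.60, SE 0.37, limma adjusted p = 0.410). In both, BaCl2 replicate 2 lay within the control range and replicate 1 below it. IFT74 (TCONS_00009545), which binds tubulin with IFT81 in other species, had 7.05 and 8.24 FPKM in control heads, against 3.41 and 4.13 FPKM in BaCl2 heads (a log2 fold of -0.86, SE 0.26, limma adjusted p = 0.167). The BBS4-like feature (TCONS_00005296), a BBSome subunit, had 14.1 and 13.8 FPKM in control heads, against 6.92 and 11.6 FPKM in BaCl2 heads (a log2 fold of -0.58, SE 0.30, limma adjusted p = 0.340). IFT74 and BBS4 were below both controls in both BaCl2 libraries.

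Poc1 centriolar protein b (TCONS_00002150), a centriole wall protein, had 13.8 and 17.6 FPKM in control heads, against 12.0 and 15.5 FPKM in BaCl2 heads. These levels overlapped, and the log2 fold of -0.18 (SE 0.27, limma adjusted p = 0.739) turned to 0.03 with scaling by library totals. Centriolin was not tested, with 27 fragments.

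Coiled-coil domain-containing proteins are named for a fold rather than a function, and the group mixed ciliary with other proteins. Of its 18 features 13 were tested, 11 with a log2 fold below 0 and 2 above, with a median of -0.47. None was called in the limma fit, and 5 had an unadjusted p under 0.05, beside 18.8% of all tested features. CCDC147 (TCONS_00007883), known in mammals as the sperm flagellar protein CFAP58, had 13.6 and 17.2 FPKM in control heads, against 7.56 and 7.57 FPKM in BaCl2 heads (a log2 fold of -0.93, SE 0.25, limma adjusted p = 0.149). CCDC124-A (TCONS_00001069), a ribosome-associated protein in other animals, had 84.7 and 77.4 FPKM in control heads, against 47.5 and 49.9 FPKM in BaCl2 heads (a log2 fold of -0.72, SE 0.26, limma adjusted p = 0.224). In both features the BaCl2 libraries were alike and below both controls. Transmembrane and coiled-coil domain-containing protein 1 (TCONS_00001533), of the endoplasmic reticulum, had 46.2 and 51.1 FPKM in control heads, against 37.9 and 46.9 FPKM in BaCl2 heads (a log2 fold of -0.20, limma adjusted p = 0.705). CCDC108 (TCONS_00013958), known in mammals as the flagellar protein CFAP65, had 18.4 and 22.6 FPKM in control heads, against 19.8 and 17.3 FPKM in BaCl2 heads (a log2 fold of -0.13, limma adjusted p = 0.799). The groups of these 2 overlapped, and their signs turned to 0.01 and 0.08 with scaling by library totals.

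The 2 features that lay above both controls in both BaCl2 libraries were of this group. The feature named for the Drosophila gene CG32809 (TCONS_00008620) had 3.89 and 7.27 FPKM in control heads, against 10.4 and 13.3 FPKM in BaCl2 heads (a log2 fold of 1.01, SE 0.33, limma adjusted p = 0.197). CCDC75 (TCONS_00001146) had 5.81 and 6.65 FPKM in control heads, against 9.97 and 10.05 FPKM in BaCl2 heads (a log2 fold of 0.61, SE 0.24, limma adjusted p = 0.251). Neither passed the test.

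Names that hold sperm, meiotic or coiled-coil also brought in 10 members with no known ciliary role, among them spermidine synthase, nuclear autoantigenic sperm protein, CCDC47 and CCDC124-A. This split was made after the values were seen and is a description. The 7 tested ones had a median log2 fold of -0.20, with 5 below 0 and 2 above, CCDC75 and the CG32809 feature. The other 54 members had 36 tested, with a median of -0.74. All 36 had a log2 fold below 0 on the deposited scale. That follows from the split, which set aside the only 2 tested members above 0.

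**Figure D3:**
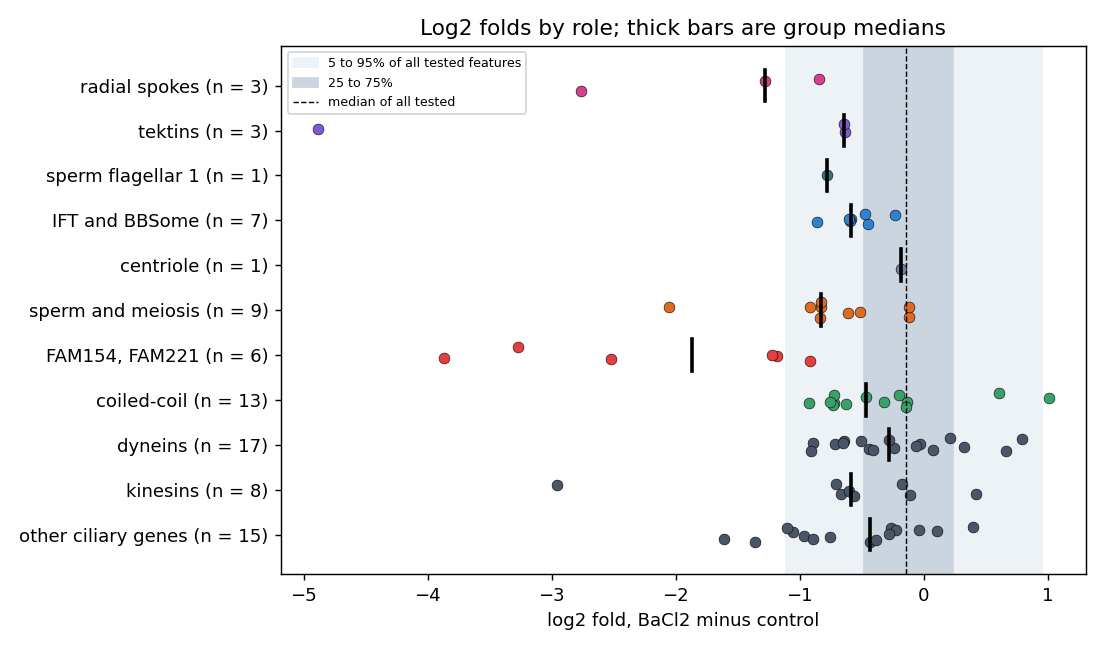
Log2 fold (BaCl2 minus control) on the horizontal axis of each tested feature by role, with a thick bar at each group's median; shaded bands and the dashed line give the spread and the median, -0.15, of all tested features. The FAM154 and FAM221 features have the lowest median with more than 1 feature, -1.87, and the coiled-coil features include the 2 members above 0.

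Other ciliary genes were taken from a list of 89 features matched by name to dyneins, kinesins, tubulin-modifying enzymes and further axonemal or ciliary names. The match also brought in features that are not axonemal by name. Among them were cytoplasmic dyneins, kinesin family member 5, septins and bromodomain testis-specific protein. Features with testis in the name also stand in the germ cell marker list below. The counts and medians of this list are thus those of a mixed set. Of the 89, 40 were tested, with 1 called lower and none higher in the limma fit, beside 1.22% and 0.2% of all tested features. An unadjusted p under 0.05 was held by 7 of the 40, beside 18.8% of all. A log2 fold below 0 was held by 32, beside 60.9% of all, and the median was -0.42. In CPM the 89 features summed to 5709 and 6516 in control and to 5516 and 6505 in BaCl2 libraries, which overlap, at 0.983 of the control level. Cytoplasmic dynein light chain 1 (9122 and 13749 control and 6209 and 14466 BaCl2 fragments) weighed most in this sum. Cytoplasmic dynein light chain 2 (5300 and 8165 control and 3289 and 8179 BaCl2 fragments) came next. The sum therefore says little about the other features of the list. The dyneins, cytoplasmic light chains among them, held 3357 and 3825 CPM in control and 3550 and 4313 CPM in BaCl2 libraries. The kinesin and tubulin-modifying sums overlapped as well. The remaining 37 features summed to 1731 and 1996 CPM in control and 1338 and 1506 CPM in BaCl2 libraries, below both controls in both. The called feature was a kinesin-like motor protein (TCONS_00015768), with 10.4 and 14.4 FPKM in control heads, against 1.12 and 0.380 FPKM in BaCl2 heads (a log2 fold of -2.95, SE 0.33, limma adjusted p = 0.0142). The 8 tested kinesins had a median of -0.59. Of the 17 tested dyneins 12 were below 0, with a median of -0.28, and the cytoplasmic dynein light chain 1 feature (TCONS_00000312) had 2488 and 2437 FPKM in control heads, against 2207 and 3052 FPKM in BaCl2 heads, which overlap. Tetratricopeptide repeat protein 29, an axonemal protein of mammalian sperm, was named after its values were seen. Its features had log2 folds of -1.61 (TCONS_00013869, limma adjusted p = 0.0787) and -1.36 (TCONS_00013870, limma adjusted p = 0.152), below both controls in both BaCl2 libraries.

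**Figure D4:**
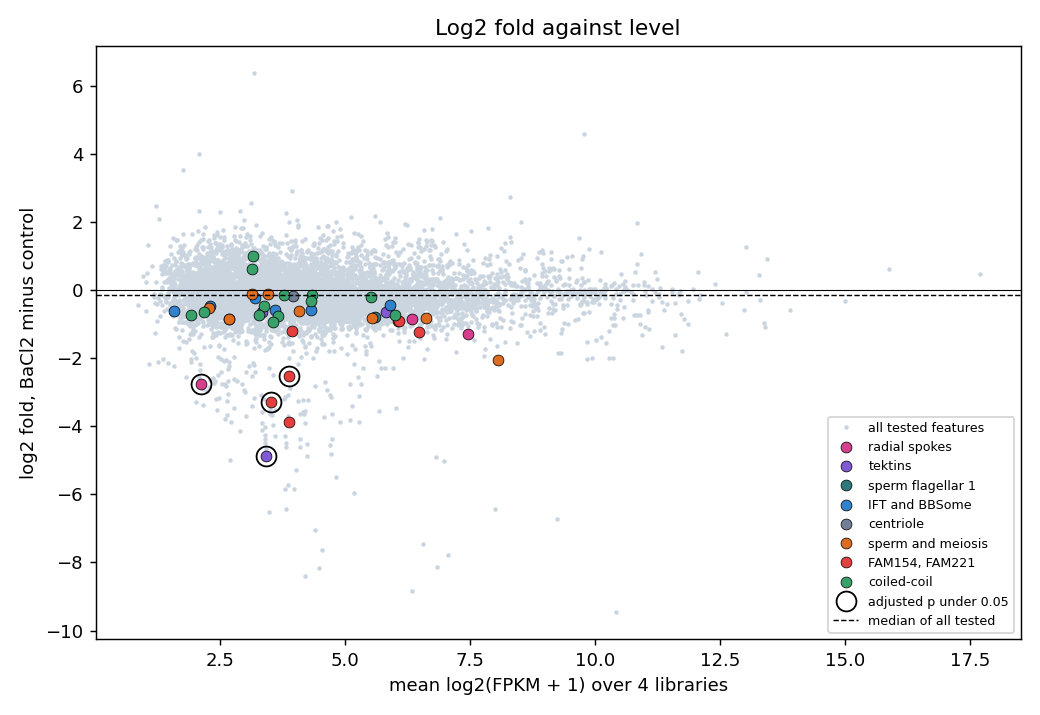
Log2 fold (BaCl2 minus control) against mean log2(FPKM + 1) over the 4 libraries for all 7983 tested features in grey and for the 43 tested members in colour by role; rings mark the 4 with a limma adjusted p under 0.05. The 6 members under -2 stand apart from the other 37, which lie between -1.28 and 1.01.

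Most of the 43 tested members thus had modest differences and 6 large ones. A log2 fold under -2 was held by these 6 members, beside 1.94% of all tested features, and no member had one above 2, beside 0.263%. The 6 were Tektin-3 TCONS_00015005, FAM154B, FAM154A TCONS_00014684, the radial spoke head protein 3 homolog, FAM221B and spermatid elongation defective 1. All of these but FAM154A TCONS_00014684 had fewer than 25 BaCl2 fragments and reached 100 fragments through the control libraries, so their number is not read against the share of all features. They carried little of the ciliary RNA, 192.3 and 246.7 CPM in the control libraries and 43.0 and 8.73 CPM in the BaCl2 libraries. The other 37 carried 4798 and 6121 CPM in control and 2766 and 4281 CPM in BaCl2 libraries, and had a median log2 fold of -0.63.

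The BaCl2 libraries differed from each other in opposite ways in these sets. In the 37 members BaCl2 replicate 1 was the lower of the BaCl2 libraries in 29, which was 78.4%, beside 62.2% of all tested features. On a scale set by library totals these shares were 64.9% and 45.3%. Over all 43 tested members the median difference from the control mean was -0.93 in BaCl2 replicate 1 and -0.39 in replicate 2, on the log2(FPKM + 1) scale, beside -0.23 and -0.07 over all tested features. In the 6 members under -2, replicate 2 was the lower in all 6 on both scales. This order was also that of 124 of the 149 other tested features with a log2 fold under -2.

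**Figure D5:**
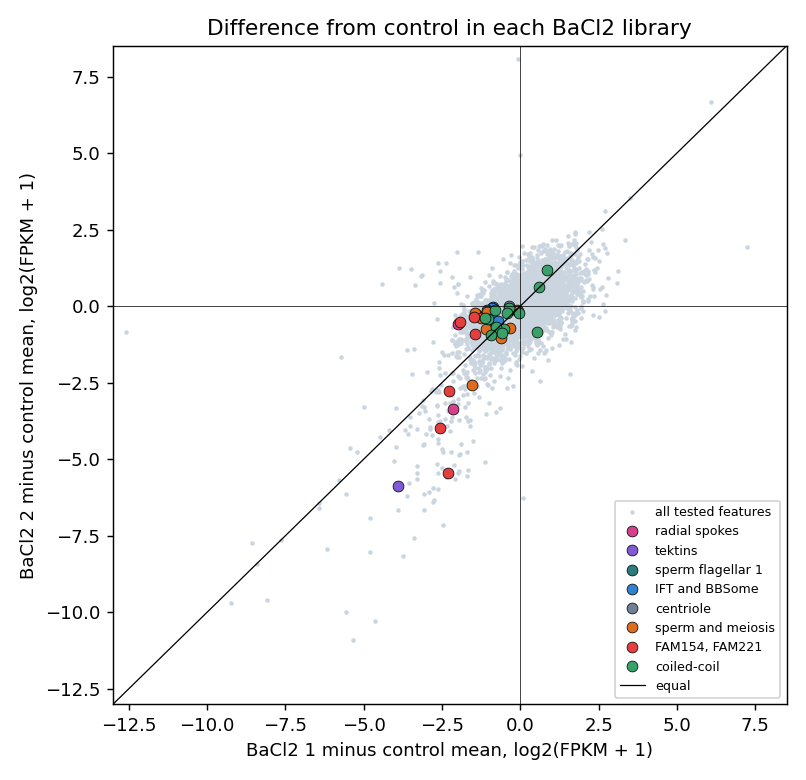
Difference of each tested feature from the control mean in BaCl2 replicate 1 (horizontal) and BaCl2 replicate 2 (vertical), both as log2(FPKM + 1); grey points are all tested features and coloured points the members. The 6 members with the largest falls lie below the line of equality, as do 124 of 149 other features under -2, while 29 of the other 37 members lie above it.

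The 6 strongly lower members also shared a place in the numbering of the assembly's contigs, which runs up to 137200. The limits of 10000 and 80000 were chosen after the values were seen. Of the 6 tested members outside these limits all 6 had a log2 fold under -2, and of the 37 tested members between them none had. Tektin-3 TCONS_00015005, FAM154A TCONS_00014684, FAM154B and the radial spoke head protein 3 homolog lay above 80000, and FAM221B and spermatid elongation defective 1 up to 10000. Among all tested features 23.5% of 426 above 80000 had a log2 fold under -2, as had 6.79% of 280 up to 10000 and 0.484% of 7230 between. All 4 called members lay outside these limits. The labels and file headers do not say what the numbering reflects. Whether the contigs outside these limits come from the same worms or strain as the others was not tested, and the 4 calls of the limma fit rest on such contigs. FAM221A, which passed in the authors' deposited table, lay between the limits. With the replicate number as a block, members between the limits were called too.

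Marker lists of 8 other cell types were summed in the same way. The 44 neuron features summed to 338 and 451 CPM in control and 652 and 634 CPM in BaCl2 libraries, the 36 muscle features to 14720 and 13740 against 21960 and 23530 CPM, and the 7 protonephridia features to 91.3 and 95.1 against 131 and 111 CPM. The 38 intestine features summed to 5883 and 5916 CPM in control and 4343 and 4432 CPM in BaCl2 libraries, the 14 features of dividing cells to 1638 and 1666 against 1437 and 1478 CPM, the 12 germ cell features to 741 and 719 against 649 and 612 CPM, and the 11 eye features to 218 and 215 against 185 and 191 CPM. The 3 sums named first were thus higher in both BaCl2 libraries, while the intestine, dividing cell, germ cell and eye sums were lower in both, as was the sum over the ciliary and flagellar members. Abundant features weigh most in such sums. In the intestine list ferritin TCONS_00005540 alone went from 12165 and 17626 control fragments to 28 and 11 in BaCl2. The 28 tested intestine features had a median log2 fold of 0.004, with 14 below 0 and 14 above. Among the 11 eye features, 5 lay above both controls in both BaCl2 libraries and 2 below. By name they were beta-arrestins, receptors of the rhodopsin family, retinol dehydrogenases, ovo and ovochymase-1, with no tyrosinase. Their sum is thus not read as a measure of eye tissue. Retinol dehydrogenase 14, with 1041 and 1358 control and 385 and 910 BaCl2 fragments, weighed most in the eye sum. The 4 mucous gland features overlapped, at 39.0 and 38.3 against 35.6 and 48.3 CPM. In the limma fit 2 marker features were called, both lower. They were a smooth muscle myosin light chain kinase feature (TCONS_00014899, a log2 fold of -2.02, limma adjusted p = 0.0436), which goes against the muscle sum, and a ferritin of the intestine list (TCONS_00005540, limma adjusted p = 0.000767). The ferritin went from 1779 and 1675 to 5.34 and 1.24 FPKM. In both control libraries at once, 1 muscle feature and no feature of the other 7 lists was at 0. The part of these shifts in the ciliary differences was not tested.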

How the data were processed

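The authors deposited FPKM per assembled feature in a pooled table and in 2 tables of 1 control and 1 BaCl2 library each, per the file headers. The deposited tables also hold the authors' log2 fold change, p-value and q-value per feature. Cufflinks 2.2.1, Cuffdiff, TopHat2 2.0.13, TopHat and Bowtie stand in the submitters' processing notes without roles, and the build of the reference was not given in the sources used here. Each pooled value was a weighted sum of replicate values (0.640 and 0.357 for control, 0.645 and 0.358 for BaCl2; within 0.1% in 15202 of 15204 features), and these weights put the 4 libraries on 1 scale. Library values missing from the replicate tables, those of 1 member among them, were worked out from the pooled table. FPKM were turned into fragments by assuming fragments of 200 nt on average (SD 80 nt, range 28 to 440 nt), which gave whole numbers within 0.1 fragments for 99.70% to 99.83% of the values checked. A single fragment stood for 11.1 to 22.3 FPKM at 100 nt and for 0.146 to 0.293 FPKM at 400 nt. Intervals from fragments cover counting error only.

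Groups were compared two-sided on log2(FPKM + 1) with limma 3.58.1 in R 4.3.3 (eBayes, mean trend) and no block, over features with at least 100 fragments, with Benjamini-Hochberg adjustment over all of them and a threshold of 0.05. A fold on this scale understates the change of low features. The fit was checked on simulated data. Alternatives changed the filter, the pseudocount, the scaling, the test and the libraries. The labels call the libraries biological replicates and do not say what a replicate number shares. Named were the members past the threshold, in each role the 3 of highest mean FPKM and the closest to the threshold, and the 3 of highest log2 fold. The members and lists were chosen with earlier results of these data known. The third replicates and starved worms that the design text mentions were not analysed here.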

Additional observations from a re-analysis of the deposited data

How the results depend on the processing

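The median log2 fold of the tested members stayed below that of all features in every alternative run, by 0.33 to 0.73 on the log2 scale, whereas the calls depended on the setting. The 4 members called lower became 0 over features averaging 1 FPKM or more, with no filter and with at least 30 fragments. They also became 0 with median-ratio rescaling and with scaling by library totals. In these fits, in that order, 10, 10, 14, 14 and 13 members had an unadjusted p under 0.05. Beside these stood 1770 of 15683, 1772 of 15850, 1764 of 12413, 1492 of 7983 and 1413 of 7983 features. With a pseudocount of 0.1 only FAM221B was called and with limma voom only FAM154A TCONS_00014684, so 1 each. A pseudocount of 5 called 5, adding FAM154B, beside 1.92% of all. Leaving out 1 library called 5 to 16 members lower, the highest without BaCl2 replicate 2, where 9.02% of all tested features were called lower, beside 2.32% to 2.66% without each other library; the lone library is then assumed to vary like the other group. The other ciliary gene called lower was lost (0) over all features, with no filter, with at least 30 fragments, with both rescalings and with voom, and without 1 library 1 to 10 were called. With the replicate number as a block 10 members were called lower and 1 higher, and 5 other ciliary genes lower, beside 6.83% of all tested features called lower and 5.06% higher; same-numbered libraries deviated together at r = 0.14, but with 2 pairs the numbers are not shown to pair the libraries. No member's call changed direction. The cause of these changes was not tested. Features under 100 fragments could not be tested at this depth.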

Other observations

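The place of strongly lower features in the contig numbering was not particular to the ciliary and flagellar members. Without the members, 96 of 422 tested features above contig number 80000 had a log2 fold under -2, which is 22.7%, and 48 were called lower. Of 278 others up to 10000, 17 were under -2 (6.12%) and 14 called lower, and of 7193 between, 35 (0.487%) and 30. None of the 426 tested features above 80000 had a log2 fold above 2, beside 17 of the 7230 between the limits. Tested features above 80000 were shorter, with a median of 309.5 nt beside 659 nt between the limits. Among features of at least 600 nt the shares under -2 were 12.2% of 82 above 80000, 7.02% of 57 up to 10000 and 0.371% of 4041 between. On a scale set by library totals the shares over all lengths were 23.9%, 7.14% and 0.470%. The limits were chosen after the values were seen, and no test was made.

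Of the 89 other ciliary features 7 lay above contig number 80000, and in 5 of these both BaCl2 libraries were below both controls, beside 27.2% of all 15850 features. The kinesin-like feature TCONS_00015768 was the only 1 of the 5 with enough fragments to be tested. A second kinesin-like feature (TCONS_00014659, 137 nt) had 16 and 58 control fragments and 2 and 0 BaCl2 fragments. Tubulin polyglutamylase TTLL13 (TCONS_00014891), named for an enzyme that adds glutamate chains to axonemal tubulin in mammals, had 18 and 41 control and 5 and 1 BaCl2 fragments. Growth arrest-specific protein 8 (TCONS_00015477), a part of the nexin-dynein regulatory complex, had 12 and 26 control and 6 and 2 BaCl2 fragments. Nucleoside diphosphate kinase 5 (TCONS_00015214) had 17 and 25 control and 9 and 1 BaCl2 fragments. In all 5 the level in FPKM was lower in BaCl2 replicate 2 than in replicate 1. The dynein light chain roadblock-type 2 feature (TCONS_00015095), also above 80000, overlapped between the groups at 187 and 97.3 FPKM in control heads, against 273 and 168 FPKM in BaCl2 heads. These features were named after their values were seen.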
